A study of Mus musculus with 8 samples.

Results

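The genes of the interferon response and of antigen presentation were followed across the 4 groups of a study of pancreatic islets from mice lacking Irs2 (insulin receptor substrate 2), with or without sodium tungstate in the drinking water. The list named 43 genes, each measured by a probe set that names that gene alone, and where a gene had several such probe sets the 1 with the highest mean over the 8 arrays was taken. Of the 43 genes, 41 had such a probe set, out of 18193 genes that had 1 on this array. Isg15 and Ifi44 had no probe set naming them alone and were not analysed here. Mx1 had a mean under the log2 value of 5.27, below which genes were left out of the tests, so 40 of the 41 were tested, among 13369 genes in all. Values are log2 signals, on which a difference of 1 is a factor of 2 in signal.

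The groups were Irs2-/- mice given sodium tungstate, untreated Irs2-/- mice, wild-type mice given sodium tungstate and untreated wild-type mice, with 2 arrays each. All were male, on a C57Bl/6 background, 10 weeks old when treatment began and 13 weeks old when it ended 21 days later. The untreated groups drank distilled water, which also carried the tungstate of the treated groups. The strength of that solution is given as 2 mg/ml in the design text and as 2 mg/dl in the sample labels, and which of them holds was not settled here. The labels describe Irs2-/- only as a knockout of the gene and name no cell type to which the loss is limited. The samples of a group are described as independent. The labels do not say if an array holds the islets of 1 mouse or of several mice pooled, and the p-values reflect only how far these samples differ. Whole islets were measured, so fewer cells of a type and less RNA per cell cannot be told apart.

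Interferons are secreted signals that cells release on infection or inflammation. Type I interferons bind a receptor whose kinases activate a complex that includes Stat2 and Irf9, and this complex binds the interferon-stimulated response element in promoters of antiviral genes such as the Ifit, Oas and Mx genes. Interferon gamma, made mainly by T cells and natural killer cells, acts through gamma-activated sites in promoters and through Irf1, and it is a strong inducer of antigen presentation, of the immunoproteasome and of the guanylate-binding and immunity-related GTPases. Many genes respond to both kinds of interferon. MHC class I molecules show peptides cut by the proteasome on nearly all nucleated cells, whereas MHC class II molecules are made mainly by macrophages, dendritic cells and B cells. In pancreatic islets, raised MHC class I is a known feature of autoimmune diabetes, and resident macrophages bear class II.

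Promoter sequences are shown because the list mixes genes known for each kind of response element. Windows of 300 bases, from 250 before to 50 after the start of the gene, were taken from RefSeq on build GRCm38.p6 for 34 of the 43 genes. No window was used for Mx1, Nlrc5, H2-Ab1, Parp14, Ciita, Cd74, Iigp1, Usp18 and Tap2. Each was searched on both strands for GAAA followed after any 2 bases by a second GAAA, a core of the interferon-stimulated response element, and for TTCNNNGAA, a core of the gamma-activated site that reads the same on both strands. Overlapping matches were counted separately, and a match of 1 motif could overlap a match of the other. The first motif was in 3.44% of the 32851 windows of the genome table and the second in 8.3%. Counted by gene, the shares were 3.99% and 9.55%. A gene with several windows was counted if any of them held a match. The response element core was found in 14 of the 34 genes. It was in 5 of 8 Ifit, Oas and Mx type genes, in 4 of 5 GTPase genes, in 2 of 6 other antiviral genes, in 2 of 6 transcription and feedback genes and in 1 of 9 antigen presentation genes. The gamma-activated site core was in 8 of the 34, namely Psmb8, Ifit2, Oas1a, Bst2, Ifi35, Igtp, Irf1 and Irf8. The 6 windows printed here run 5′ to 3′ along the gene's strand, with matches in capitals. Where a gene had several windows, the one with the most matches was printed. Gbp2 and B2m, which were higher in untreated Irs2-/- islets, each hold 1 response element core. The printed Irf8 window holds 2 gamma-activated site cores, while another Irf8 window holds 0 of either motif. Tap1 holds neither, and 275 bases of its window are shared, on the other strand, with the window of Psmb9. Ifit1 and Ifit3, which did not pass the test, each hold 2 response element cores. A match describes letters in the window and is neither a binding site nor a cause.
Gbp2: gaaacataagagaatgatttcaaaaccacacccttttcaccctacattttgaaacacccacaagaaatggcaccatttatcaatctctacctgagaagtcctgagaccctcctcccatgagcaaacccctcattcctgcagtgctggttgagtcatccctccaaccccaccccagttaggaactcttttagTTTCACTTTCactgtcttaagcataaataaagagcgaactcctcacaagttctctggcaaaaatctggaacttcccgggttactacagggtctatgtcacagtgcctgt
B2m: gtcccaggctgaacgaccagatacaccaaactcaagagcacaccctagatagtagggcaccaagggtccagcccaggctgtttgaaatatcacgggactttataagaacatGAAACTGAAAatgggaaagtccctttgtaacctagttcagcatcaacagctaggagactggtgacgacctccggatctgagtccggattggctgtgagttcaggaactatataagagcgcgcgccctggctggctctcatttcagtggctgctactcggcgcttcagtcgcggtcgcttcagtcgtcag
Irf8: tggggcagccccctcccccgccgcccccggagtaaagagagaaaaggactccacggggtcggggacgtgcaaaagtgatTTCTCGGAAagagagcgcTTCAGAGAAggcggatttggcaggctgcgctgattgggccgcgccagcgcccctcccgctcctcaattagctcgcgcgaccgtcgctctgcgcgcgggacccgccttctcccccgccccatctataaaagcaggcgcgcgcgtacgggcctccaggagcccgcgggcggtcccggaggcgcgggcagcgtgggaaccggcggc
Tap1: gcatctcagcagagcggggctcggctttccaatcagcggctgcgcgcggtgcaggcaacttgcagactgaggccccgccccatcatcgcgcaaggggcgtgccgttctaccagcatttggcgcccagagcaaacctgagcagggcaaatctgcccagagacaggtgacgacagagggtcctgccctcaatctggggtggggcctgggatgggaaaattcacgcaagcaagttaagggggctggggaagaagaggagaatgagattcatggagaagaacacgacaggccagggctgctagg
Ifit1: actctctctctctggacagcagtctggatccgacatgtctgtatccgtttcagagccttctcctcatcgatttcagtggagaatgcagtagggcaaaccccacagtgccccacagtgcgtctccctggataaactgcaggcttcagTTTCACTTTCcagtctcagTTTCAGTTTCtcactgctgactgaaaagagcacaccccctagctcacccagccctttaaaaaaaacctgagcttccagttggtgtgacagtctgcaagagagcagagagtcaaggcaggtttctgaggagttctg
Ifit3: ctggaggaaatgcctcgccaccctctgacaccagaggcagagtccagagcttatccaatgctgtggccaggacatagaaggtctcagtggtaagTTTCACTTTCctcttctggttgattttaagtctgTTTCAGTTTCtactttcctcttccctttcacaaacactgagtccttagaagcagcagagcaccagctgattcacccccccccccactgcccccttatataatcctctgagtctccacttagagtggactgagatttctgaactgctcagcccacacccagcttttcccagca
They lie at chr3:142620413-142620712 for Gbp2, chr2:122147437-122147736 for B2m, chr8:120736108-120736407 for Irf8, chr17:34187306-34187605 for Tap1, chr19:34640639-34640938 for Ifit1 and chr19:34583279-34583578 for Ifit3, all on the plus strand.

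Several features of the arrays bear on the members. Irs2 read between 4.54 and 4.89 on the 4 Irs2-/- arrays and between 7.61 and 7.91 on the 4 wild-type arrays, as the labels have it. Ins2, the insulin gene that marks beta cells, read over 14.7 on all arrays, the top of the measured range, where a difference may go unseen. Of 7 beta cell markers 5 fell in untreated Irs2-/- against untreated wild-type islets (median -1.21), among them Slc2a2 (-2.30 ± 0.36) and Pdx1 (-0.74 ± 0.16), so the beta cell signal was not even across the groups. Macrophage markers, 11 genes such as Cd68 and Aif1, had a mean level of 7.49 and 7.66 in tungstate-treated Irs2-/- islets, 8.75 and 8.86 in untreated Irs2-/- islets, 7.28 and 7.07 in tungstate-treated wild-type islets and 7.47 and 7.03 in untreated wild-type islets. T cell markers (6 genes) averaged 7.35 and 6.67 in untreated Irs2-/- islets and between 5.39 and 6.00 on the other 6 arrays. B cell markers (4 genes) averaged 5.84 and 6.82 in tungstate-treated Irs2-/- islets, 8.08 and 7.35 in untreated Irs2-/- islets, 6.63 and 5.16 in tungstate-treated wild-type islets and 7.04 and 5.32 in untreated wild-type islets, so replicates differed by up to more than 1 log2 unit. In untreated Irs2-/- against untreated wild-type islets 9 of 11 macrophage, 3 of 6 T cell, 1 of 5 dendritic cell, 1 of 2 natural killer cell, 1 of 5 endothelial and 1 of 6 acinar markers rose by limma, as did 0 of 4 B cell markers (2 at an unadjusted p under 0.05). The dendritic cell marker Xcr1 and the natural killer cell marker Ncr1 lay under the filter. Acinar markers averaged 11.40 and 12.16 in tungstate-treated Irs2-/- islets, 11.59 and 12.37 in untreated Irs2-/- islets, 10.54 and 10.70 in tungstate-treated wild-type islets and 9.12 and 12.05 in untreated wild-type islets, where the replicates differed most. The 18S ribosomal control probe sets read 11.05 and 10.63 in untreated Irs2-/- islets, and 11.12 to 12.70 on the other 6 arrays. The part of other cell types and of RNA quality in the results that follow was not tested.

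Untreated Irs2-/- islets were first set against untreated wild-type islets, to see how the members differ when Irs2 is missing. Of the antigen presentation genes 11 of 14 rose without Irs2, as did 4 of the 6 interferon-inducible GTPases. None of the 7 tested Ifit, Oas and Mx type genes passed limma's test (2 at an unadjusted p under 0.05). Of the 40 members tested, 16 rose and 0 fell at a limma adjusted p under 0.05, where 8.27% of all tested genes rose and 8.52% fell. At an unadjusted p under 0.05 there were 24 members, against 33.2% of all genes. The median difference was 0.63 over the 41 members, against -0.01 over all tested genes. Both untreated Irs2-/- arrays lay above both untreated wild-type arrays for 30 members and below them for 3, where 28.9% and 31.7% of all tested genes did so.

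In the MHC class I pathway, immunoproteasome included, 6 of 8 members rose, and the median difference was 1.03. Psmb8, which encodes the catalytic immunoproteasome subunit LMP7, read 9.62 and 9.03 in untreated Irs2-/- islets, against 8.13 and 7.72 in untreated wild-type islets. The 2 groups did not overlap, and tungstate-treated arrays of both genotypes, between 7.66 and 8.19, lay near the untreated wild-type values. The difference was 1.40 ± 0.23 (log2 ± SE), or 2.64-fold (limma adjusted p = 0.00891). A further Psmb8 probe set above the same mean gave 0.43, so the size depends on the probe set. Psmb10, another immunoproteasome subunit, read 9.59 and 9.33 in untreated Irs2-/- islets and 8.53 and 8.54 in untreated wild-type islets. These arrays also stood apart without overlap, by 1.90-fold (limma adjusted p = 0.0102). B2m, the light chain of MHC class I, read 12.51 and 12.13 in untreated Irs2-/- islets and 11.56 and 10.95 in untreated wild-type islets, a 2.10-fold difference (1.07 ± 0.23, limma adjusted p = 0.0214). Nlrc5, the transactivator of MHC class I genes, read 8.33 and 6.93 in untreated Irs2-/- islets and 6.05 and 4.93 in untreated wild-type islets. Replicate 1 was the higher array in both groups, by more than 1 log2 unit, and the groups did not overlap. The difference of 2.14 ± 0.47 was the largest of this class (limma adjusted p = 0.0221).

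Psmb9, the third immunoproteasome subunit, rose by 0.99 ± 0.24 (limma adjusted p = 0.0307), and Tap1, a subunit of the peptide transporter, rose by 1.09 ± 0.28 (limma adjusted p = 0.0354). Tap2, the other subunit of that transporter, differed by 0.63 ± 0.25 and did not pass (limma adjusted p = 0.123). Tapbp, or tapasin, which links the transporter to class I molecules, differed by -0.08 ± 0.15 (limma adjusted p = 0.745). Psmb9, Tap1, Psmb8 and Tap2 lie in this order on chromosome 17 with 0 protein-coding genes between neighbours in the RefSeq gene table, and 9 of the members lie on that chromosome. Of these 9, only Tap2 and Tapbp did not pass.

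**Figure D1:**
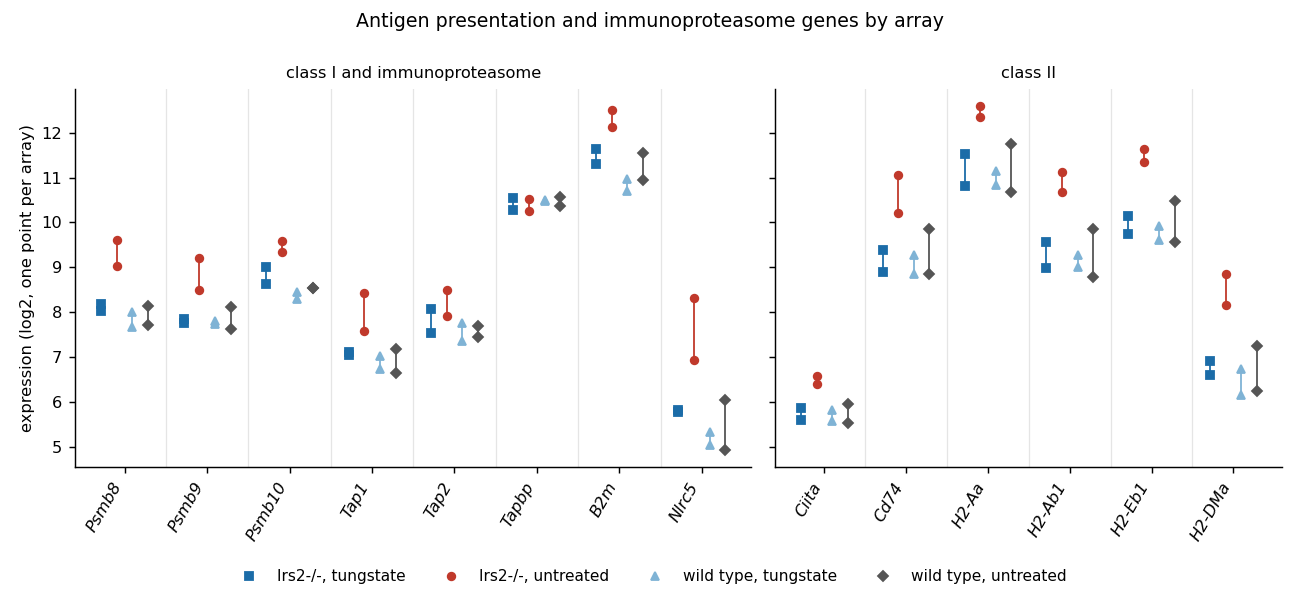
Log2 signal of the 14 antigen presentation and immunoproteasome members on each of the 8 arrays, with a point per array coloured by group and a line joining the 2 replicates. Both untreated Irs2-/- arrays lie above the other 6 arrays for 12 of the 14 genes, and Tap2 and Tapbp are the exceptions.

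The MHC class II genes showed the same direction, with 5 of 6 past the test and a median difference of 1.38. H2-Eb1, a class II beta chain, read 11.64 and 11.34 in untreated Irs2-/- islets and 10.48 and 9.57 in untreated wild-type islets. The groups did not overlap, and the difference was 2.77-fold (1.47 ± 0.29, limma adjusted p = 0.0159). H2-DMa, a chain of the peptide-loading molecule for class II, read 8.86 and 8.17 in untreated Irs2-/- islets and 7.24 and 6.25 in untreated wild-type islets. By the probe sets used it had the largest difference of the class, 3.40-fold (1.76 ± 0.36, limma adjusted p = 0.0171). H2-Ab1, another class II beta chain, read 11.13 and 10.69 in untreated Irs2-/- islets and 9.87 and 8.78 in untreated wild-type islets (1.59 ± 0.35, limma adjusted p = 0.0224). Ciita, the master regulator of class II transcription, read 6.59 and 6.40 in untreated Irs2-/- islets and 5.95 and 5.53 in untreated wild-type islets. Its arrays did not overlap either, and it rose by 0.75 ± 0.18 (limma adjusted p = 0.0272). The alpha chain gene H2-Aa rose by 1.26 ± 0.35 (limma adjusted p = 0.0480). Its 4 probe sets above the filter gave between 1.26 and 1.86, so the size depends on the probe set. Cd74, the invariant chain that guards the class II groove, differed by 1.28 ± 0.38 and did not pass (limma adjusted p = 0.0568). Macrophages, dendritic cells and B cells carry class II, and on the same arrays 9 of 11 macrophage markers, 1 of 5 tested dendritic cell markers and 0 of 4 B cell markers (2 at an unadjusted p under 0.05) rose by limma. Their part in the class II difference was not tested.

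Of the 6 interferon-inducible GTPases, which take part in defence against intracellular microbes, 4 rose, with a median difference of 1.45 over the class. Gbp2, a guanylate-binding protein, read 8.44 and 7.12 in untreated Irs2-/- islets and 5.97 and 5.28 in untreated wild-type islets. The groups did not overlap, although the Irs2-/- replicates lay further apart than the wild-type ones. The 4.47-fold difference (2.16 ± 0.39) was the largest of all members by the probe sets used (limma adjusted p = 0.0121). Iigp1, an immunity-related GTPase, read 9.18 and 8.30 in untreated Irs2-/- islets and 7.23 and 6.87 in untreated wild-type islets. This was a difference of 3.22-fold without overlap (1.69 ± 0.32, limma adjusted p = 0.0141). Ifi47, of the same family, read 9.52 and 8.36 in untreated Irs2-/- islets and 7.51 and 6.54 in untreated wild-type islets (3.77-fold, limma adjusted p = 0.0204). Gbp3 read 7.17 and 6.37 in untreated Irs2-/- islets and 5.67 and 5.43 in untreated wild-type islets, again without overlap (2.33-fold, limma adjusted p = 0.0194). Igtp (0.63 ± 0.25) and Irgm1 (0.42 ± 0.20) did not pass.

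**Figure D2:**
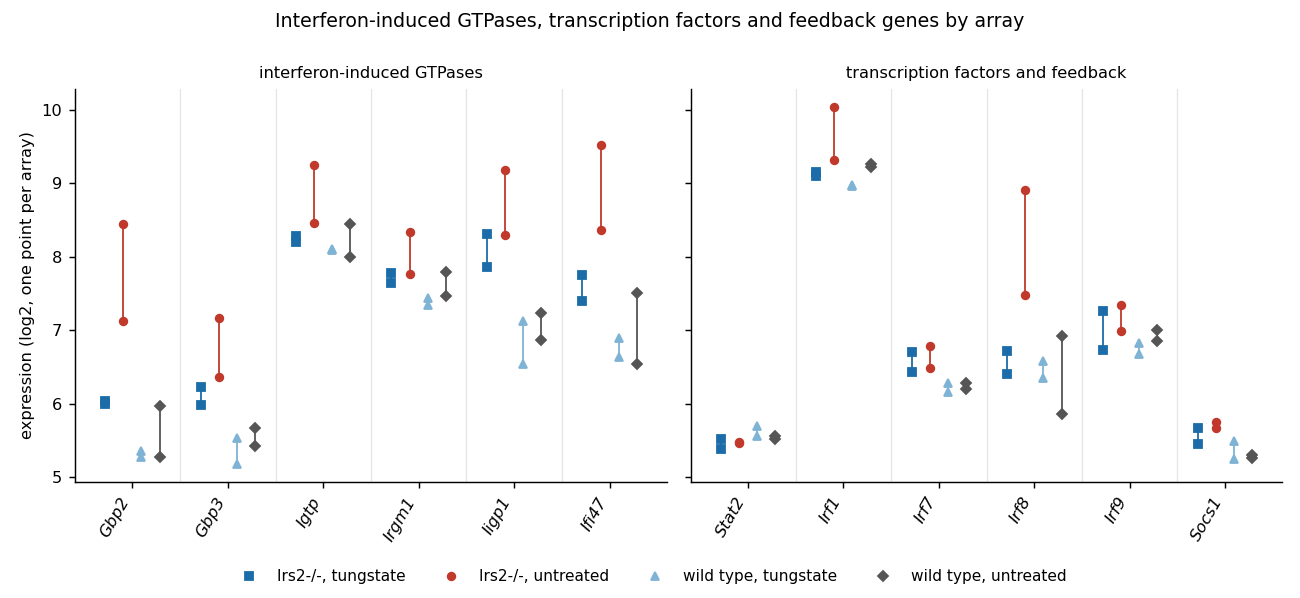
Log2 signal of the interferon-inducible GTPases and of the transcription and feedback members on each of the 8 arrays, with a point per array coloured by group and a line joining the 2 replicates. Gbp2, Gbp3, Iigp1, Ifi47 and Irf8 stand higher in untreated Irs2-/- islets than in untreated wild-type islets, and Stat2 lies between 5.38 and 5.69 on all arrays.

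Among the transcription factors and the feedback gene, 1 of 6 passed. Irf8, a factor of macrophage, dendritic cell and B cell development, read 8.90 and 7.48 in untreated Irs2-/- islets and 6.92 and 5.86 in untreated wild-type islets. Replicate 1 was again the higher array in each group, the groups did not overlap, and the difference was 3.49-fold (1.80 ± 0.47, limma adjusted p = 0.0371). A further Irf8 probe set above the filter gave 2.42, so the size depends on the probe set. Irf1, which carries the interferon gamma signal to antigen presentation genes, read 10.04 and 9.31 in untreated Irs2-/- islets and 9.22 and 9.26 in untreated wild-type islets. All but the first of these 4 values lay within 0.1 of each other, and Irf1 did not pass (0.44 ± 0.21, limma adjusted p = 0.189). Irf7, the factor that amplifies type I interferon, read 6.78 and 6.49 in untreated Irs2-/- islets and 6.28 and 6.20 in untreated wild-type islets (0.39 ± 0.15, limma adjusted p = 0.105). Socs1, the feedback inhibitor of the receptor kinases, read 5.75 and 5.67 in untreated Irs2-/- islets and 5.27 and 5.30 in untreated wild-type islets (0.43 ± 0.13, limma adjusted p = 0.0640). Both genes had arrays without overlap and did not pass. Irf9 (0.24 ± 0.20) and Stat2 (-0.06 ± 0.11), which act in the type I signal, did not pass. A further Stat2 probe set above the filter gave -0.30, so the size depends on the probe set. The signals of Socs1 and Stat2 lay near the filter, where a difference may be understated.

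None of the 7 tested Ifit, Oas and Mx type genes passed limma's test, and 2 of them had an unadjusted p under 0.05. The median difference over the 8 with a probe set was 0.22. Oas1a, which makes the messenger that activates RNase L, read 8.02 and 7.74 in untreated Irs2-/- islets and 7.51 and 7.24 in untreated wild-type islets (0.51 ± 0.19, limma adjusted p = 0.108). Ifit2, which binds viral RNA, read 6.69 and 6.27 in untreated Irs2-/- islets and 5.92 and 5.54 in untreated wild-type islets (0.75 ± 0.30, limma adjusted p = 0.128). The arrays of both genes did not overlap, and these were the 2 with an unadjusted p under 0.05. Rsad2, or viperin, read 8.24 and 8.62 in untreated Irs2-/- islets and 8.82 and 8.66 in untreated wild-type islets, lower without Irs2 by value but not past the test (-0.31 ± 0.15, limma adjusted p = 0.197). The 3 Rsad2 probe sets above the filter gave between -0.52 and -0.31, so the size depends on the probe set. Ifit3 read 6.91 and 6.90 in untreated Irs2-/- islets and 6.76 and 6.04 in untreated wild-type islets (0.51 ± 0.36). Ifit1 (-0.02 ± 0.39) and Oasl2 (0.15 ± 0.38) were close to 0 relative to their errors. Usp18, a protease that removes Isg15 from proteins, differed by -0.14 ± 0.13 and did not pass. Both its untreated Irs2-/- arrays lay below both untreated wild-type arrays. The Oasl2 signal lay near the filter, where a difference may be understated. Mx1, not tested, read 5.34 and 5.33 in untreated Irs2-/- islets and 5.23 and 4.87 in untreated wild-type islets.

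The 7 other antiviral members also had 0 genes past limma's test and 1 with an unadjusted p under 0.05, Bst2. Bst2, or tetherin, which holds budding viruses on the cell surface, read 8.41 and 8.01 in untreated Irs2-/- islets and 7.35 and 7.29 in untreated wild-type islets. The groups were apart by more than either group's spread, and the adjusted p lay just over the threshold (0.89 ± 0.26, limma adjusted p = 0.0560). Xaf1, a pro-apoptotic interferon target, read 7.69 and 7.32 in untreated Irs2-/- islets and 7.19 and 6.99 in untreated wild-type islets (0.42 ± 0.24). Ifih1, the RNA sensor MDA5, read 8.16 and 8.37 in untreated Irs2-/- islets and 7.91 and 7.78 in untreated wild-type islets (0.42 ± 0.27). Parp14, an ADP-ribosyltransferase, read 8.13 and 7.88 in untreated Irs2-/- islets and 7.88 and 7.65 in untreated wild-type islets (0.23 ± 0.19). Trim25 (0.13 ± 0.11), Dtx3l (0.05 ± 0.19) and Ifi35 (0.00 ± 0.15) showed the smallest differences.

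**Figure D3:**
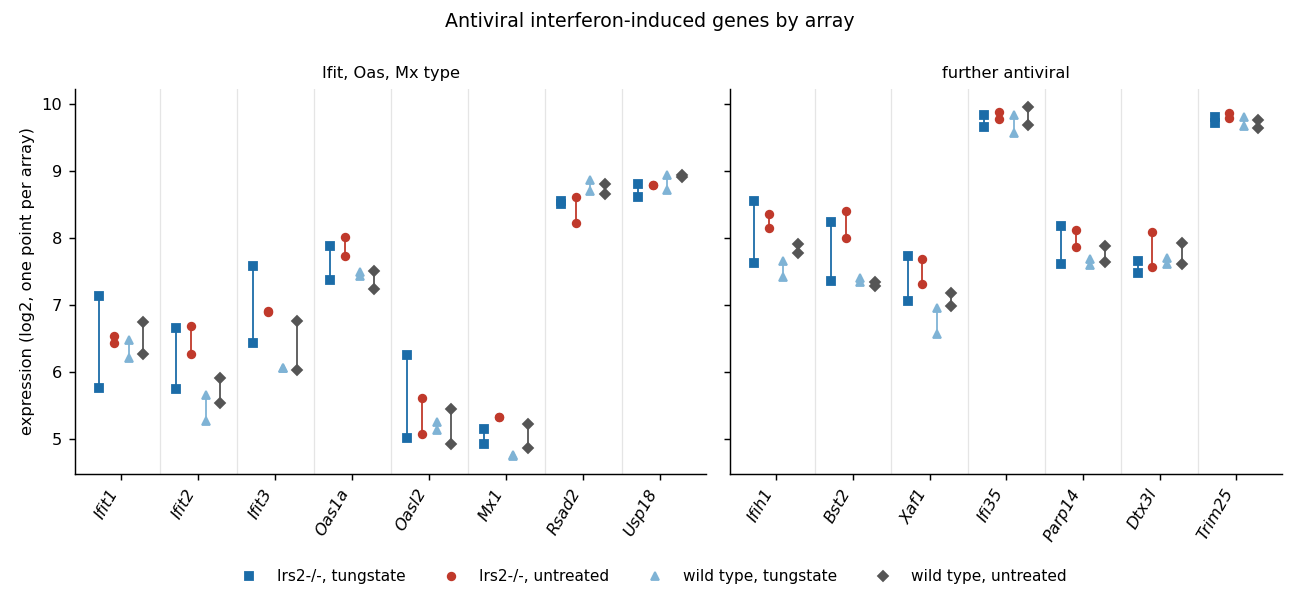
Log2 signal of the Ifit, Oas and Mx type members and the other antiviral members on each of the 8 arrays, with a point per array coloured by group and a line joining the 2 replicates. Both untreated Irs2-/- arrays lie above the other 6 arrays for 1 of the 15 genes, Mx1. Bst2 is higher on both untreated Irs2-/- arrays than on both untreated wild-type arrays, and Ifit1, Ifit3 and Oasl2 are highest on replicate 1 of the tungstate-treated Irs2-/- islets.

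The count of 16 depends on which arrays are kept. Without untreated wild-type replicate 2 it was 0 of 40, with 4.88% of all genes past the test, and without untreated Irs2-/- replicate 1 it was 2 (Psmb8 and Gbp2), with 5.69% of all genes past it. Replicate 1 had the higher level of T and B cell markers in both untreated groups. On replicate 2, untreated Irs2-/- still exceeded untreated wild-type islets in T cell (6.67 against 5.39) and B cell (7.35 against 5.32) markers. The antigen presentation genes averaged 9.35 against 8.14 there, and the Ifit, Oas and Mx type genes 6.90 against 6.56. A fit without replicate 1 of both groups takes its spread from the tungstate-treated arrays alone, so its count is not given. Replicate 1 lay above replicate 2 for 39 of the 41 members in untreated Irs2-/- islets and for 37 in untreated wild-type islets, where 6091 and 8079 of the 13369 tested genes did so. Differences of 5 of the 16 genes moved by over 1.5 times with an array left out. H2-Aa was 0.72 and H2-Ab1 1.05 without untreated wild-type replicate 2, and Psmb9 was 0.64, Tap1 0.67 and Irf8 1.09 without untreated Irs2-/- replicate 1.

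Beyond the members, 67 genes of the pathway were listed and 55 were tested, of which 17 rose and 1 fell in untreated Irs2-/- against untreated wild-type islets. Among ligands, receptors and kinases 2 of 13 rose, the receptor chains Ifnar2 (1.29 ± 0.14, limma adjusted p = 0.00257) and Ifngr1 (0.63 ± 0.18, limma adjusted p = 0.0486), while the kinases Jak1 (-0.53 ± 0.26) and Tyk2 (0.16 ± 0.12) did not pass. Ifng, which encodes interferon gamma and is named here after its values were seen, lay under the filter at 3.88 and 4.30 in tungstate-treated Irs2-/- islets, 5.09 and 4.33 in untreated Irs2-/- islets, 4.05 and 4.02 in tungstate-treated wild-type islets and 4.16 and 4.08 in untreated wild-type islets. Of the sensors of nucleic acids 3 of 10 rose, namely Samhd1 (1.62 ± 0.31), Tlr7 (0.66 ± 0.13) and Tlr3 (0.60 ± 0.13), and Zbp1 (0.64 ± 0.22) did not pass. The standard proteasome subunits Psmb5, Psmb6 and Psmb7, which Psmb8, Psmb9 and Psmb10 replace in the immunoproteasome, differed by 0.31 ± 0.17, 0.32 ± 0.17 and 0.28 ± 0.17. None of the 6 standard subunits passed limma's test, and 0 had an unadjusted p under 0.05.

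In the rest of the class I pathway 3 of 7 rose, namely the heavy chain genes H2-D1 (0.73 ± 0.17) and H2-K1 (0.49 ± 0.12) and the proteasome activator gene Psme1 (0.62 ± 0.16), while Canx, the chaperone calnexin, differed by -0.33 ± 0.12 and did not pass. H2-D1 and H2-K1 belong to a family of near-identical genes, so their probe sets may also read relatives. In the rest of the class II pathway 3 of 7 rose, namely the protease gene Ctss (1.16 ± 0.14, limma adjusted p = 0.00294), the co-stimulator gene Cd86 (1.15 ± 0.22) and the thiol reductase gene Ifi30 (1.02 ± 0.26), and H2-Oa (1.70 ± 0.52) did not pass. Among 12 further interferon-induced genes 6 rose and 1 fell. Cxcl9, a T cell attractant induced by interferon gamma, rose by 3.86 ± 0.30 (limma adjusted p = 0.00101), Ifitm3, which blocks viral entry, by 1.44 ± 0.25 and the nuclear body gene Sp100 by 1.41 ± 0.27. Cmpk2, a mitochondrial nucleotide kinase induced by type I interferon, fell by 0.78 ± 0.13 (limma adjusted p = 0.00972). Cmpk2 is the neighbour of the member Rsad2 on chromosome 12, with 0 protein-coding genes between them.

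The comparison of tungstate-treated with untreated Irs2-/- islets asked how the members differ under the treatment when Irs2 is missing. It shares the untreated Irs2-/- arrays with the comparison above, so the values of the 2 comparisons are not independent. None of the 40 members passed limma's test, where 0.494% of all tested genes did. At an unadjusted p under 0.05 there were 18 members, against 13.3% of all genes. The median difference over the 41 members was -0.40, against -0.01 over all tested genes, and 37 of the 41 differences were below 0. By class the median was -0.89 for class I and immunoproteasome genes, -1.52 for class II genes, -0.66 for the GTPases, -0.16 for transcription and feedback genes, -0.10 for the other antiviral genes and -0.06 for the Ifit, Oas and Mx type genes. Both treated arrays lay below both untreated ones for 19 members and above them for 0, where 22.9% and 17.6% of all tested genes did so.

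The smallest adjusted p belonged to Psmb8 and H2-Eb1. Psmb8 read 8.19 and 8.03 in tungstate-treated Irs2-/- islets, against 9.62 and 9.03 in untreated Irs2-/- islets (-1.22 ± 0.23, limma adjusted p = 0.0862). H2-Eb1 read 9.74 and 10.14 in tungstate-treated Irs2-/- islets, against 11.64 and 11.34 in untreated Irs2-/- islets (-1.55 ± 0.29, limma adjusted p = 0.0862). Neither gene's arrays overlapped between the groups. H2-DMa read 6.60 and 6.91 in tungstate-treated Irs2-/- islets, against 8.86 and 8.17 in untreated Irs2-/- islets (-1.75 ± 0.36, limma adjusted p = 0.102). H2-Ab1 read 8.98 and 9.56 in tungstate-treated Irs2-/- islets, against 11.13 and 10.69 in untreated Irs2-/- islets (-1.64 ± 0.35). For both class II genes the treated arrays lay well below the untreated ones, and replicate 2 was the higher of the treated arrays. Psmb9 read 7.76 and 7.85 in tungstate-treated Irs2-/- islets, against 9.21 and 8.51 in untreated Irs2-/- islets (-1.05 ± 0.24). Psmb10 read 9.00 and 8.63 in tungstate-treated Irs2-/- islets, against 9.59 and 9.33 in untreated Irs2-/- islets (-0.65 ± 0.16).

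Gbp2 read 6.03 and 6.00 in tungstate-treated Irs2-/- islets, against 8.44 and 7.12 in untreated Irs2-/- islets (-1.77 ± 0.39, limma adjusted p = 0.117). The treated replicates were nearly equal, whereas the untreated ones were more than 1 log2 unit apart. Ifi47 read 7.75 and 7.40 in tungstate-treated Irs2-/- islets, against 9.52 and 8.36 in untreated Irs2-/- islets (-1.36 ± 0.41), and Gbp3 read 6.23 and 5.99 in tungstate-treated Irs2-/- islets, against 7.17 and 6.37 in untreated Irs2-/- islets (-0.66 ± 0.26). Irf8 read 6.40 and 6.72 in tungstate-treated Irs2-/- islets, against 8.90 and 7.48 in untreated Irs2-/- islets (-1.63 ± 0.47). Irf1 read 9.11 and 9.15 in tungstate-treated Irs2-/- islets, against 10.04 and 9.31 in untreated Irs2-/- islets (-0.55 ± 0.21). In these 5 genes the groups did not overlap. Socs1 read 5.45 and 5.68 in tungstate-treated Irs2-/- islets and overlapped the untreated values (-0.15 ± 0.13).

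In the antiviral classes the treated and untreated Irs2-/- arrays overlapped for 14 of the 15 genes measured, and Mx1 was the exception. Oas1a read 7.89 and 7.38 in tungstate-treated Irs2-/- islets, against 8.02 and 7.74 in untreated Irs2-/- islets (-0.25 ± 0.19). Ifit2 read 6.66 and 5.75 in tungstate-treated Irs2-/- islets, against 6.69 and 6.27 in untreated Irs2-/- islets (-0.28 ± 0.30). Oasl2 read 6.26 and 5.02 in tungstate-treated Irs2-/- islets, against 5.61 and 5.07 in untreated Irs2-/- islets (0.30 ± 0.38). In all 3 of these genes replicate 1 was the higher treated array, and the treated replicates were further apart than the group means. Bst2 read 8.24 and 7.36 in tungstate-treated Irs2-/- islets, against 8.41 and 8.01 in untreated Irs2-/- islets (-0.41 ± 0.26). Dtx3l, a ubiquitin ligase, read 7.67 and 7.48 in tungstate-treated Irs2-/- islets, against 8.09 and 7.57 in untreated Irs2-/- islets (-0.25 ± 0.19). Ifih1 read 8.55 and 7.63 in tungstate-treated Irs2-/- islets, against 8.16 and 8.37 in untreated Irs2-/- islets (-0.17 ± 0.27). In each of these genes the groups overlapped.

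On the same arrays 5 of 11 macrophage markers fell under tungstate in Irs2-/- islets, while 0 T cell, B cell, dendritic cell, natural killer cell and endothelial markers passed limma's test (3, 2, 2, 1 and 1 had an unadjusted p under 0.05). The range of the macrophage level, 7.49 to 7.66 in tungstate-treated and 8.75 to 8.86 in untreated Irs2-/- islets, did not overlap, and its part in the members' values was not tested. Of the further pathway genes 2 fell, Ctss (-1.22 ± 0.14, limma adjusted p = 0.0157) and Cxcl9 (-3.50 ± 0.30, limma adjusted p = 0.00626). The count of 0 members depended on the array left out. It was 7 without untreated Irs2-/- replicate 2 (Irf1, Psmb8, Psmb9, Tap1, Irf8, Gbp2 and Nlrc5), against 1.98% of all genes. It was 2 without either untreated wild-type array (H2-Eb1 and H2-Ab1), against 0.561% of all genes. All of these were lower under tungstate.

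**Figure D4:**
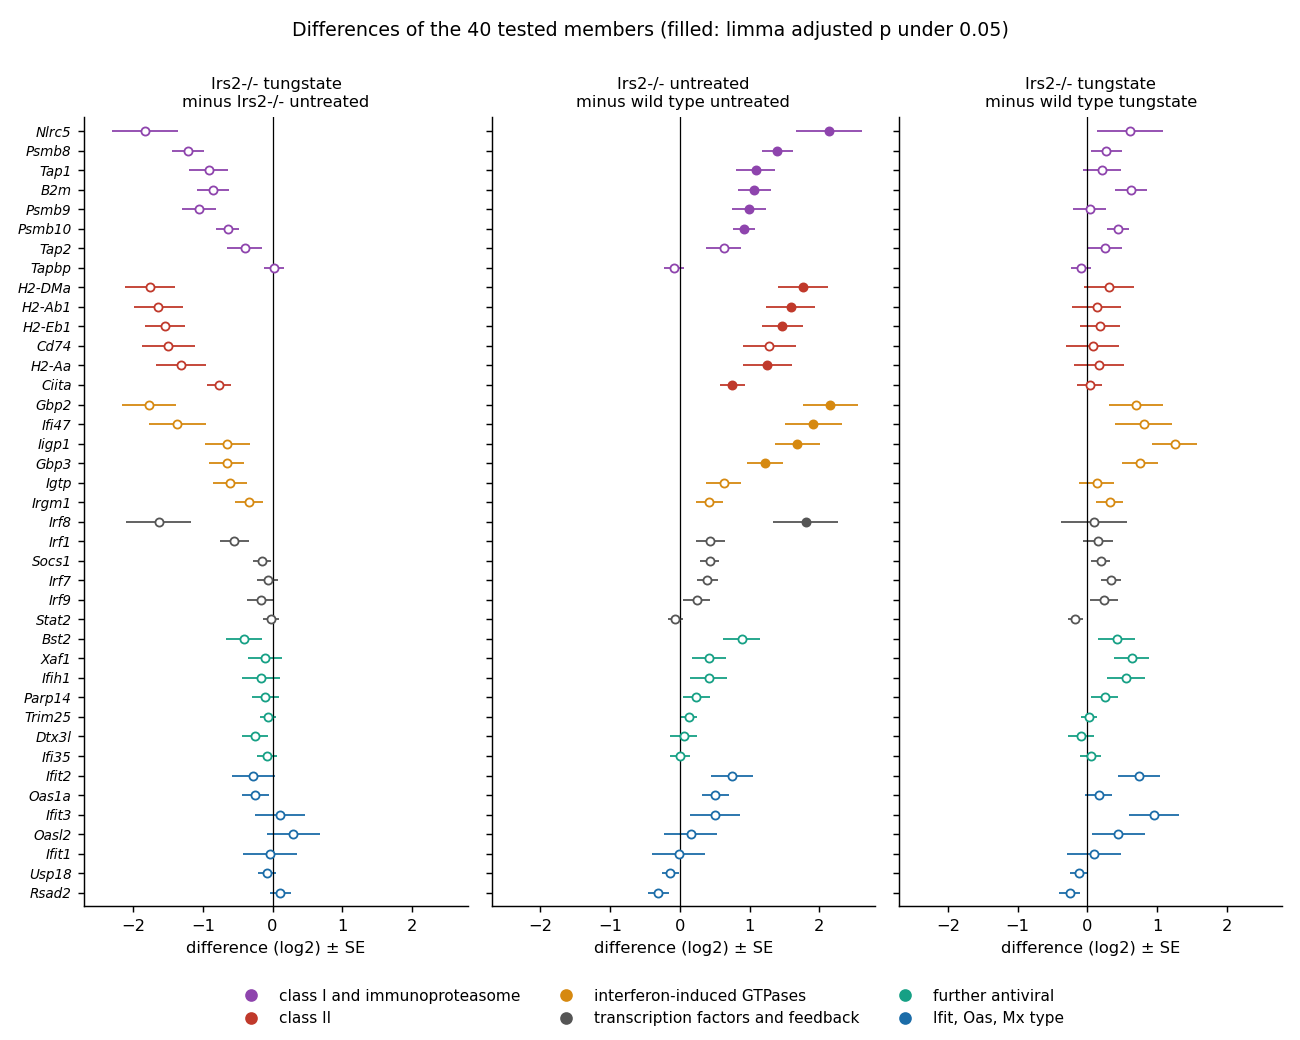
Log2 difference with its SE for each of the 40 tested members, grouped by role, in 3 comparisons. These are tungstate-treated against untreated Irs2-/- islets, untreated Irs2-/- against untreated wild-type islets and tungstate-treated Irs2-/- against tungstate-treated wild-type islets. Filled points have a limma adjusted p under 0.05, which are 16 in the comparison of untreated genotypes and 0 in each of the others.

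The comparison of the genotypes under tungstate shares no array with that of the untreated mice. None of the 40 members passed limma's test between tungstate-treated Irs2-/- and tungstate-treated wild-type islets, where 1.02% of all tested genes did. At an unadjusted p under 0.05 there were 7 (Psmb10, B2m, Ifit2, Ifit3, Xaf1, Gbp3 and Iigp1), against 16.1% of all genes. The median over the 41 members was 0.24, against -0.01 over all tested genes, and 36 of the 41 differences were above 0. The class II genes lay between 0.04 and 0.31 and the class I genes had a median of 0.26, whereas the GTPases had a median of 0.73. For all 6 GTPases both Irs2-/- arrays lay above both wild-type arrays, as they did for 17 members in all, where 22.4% of all tested genes did so, and they lay below them for 2 (Rsad2 and Stat2), where 25.7% did. On the same arrays 1 of 5 endothelial markers rose (4 at an unadjusted p under 0.05, median 0.73). By limma 0 of 11 macrophage and 0 of 6 acinar markers passed (3 and 1 at an unadjusted p under 0.05), with arrays that did not overlap and were higher in Irs2-/- islets for 9 and 6 of them. Their part in the members' values was not tested. Iigp1 read 8.32 and 7.86 in tungstate-treated Irs2-/- islets, against 7.13 and 6.54 in tungstate-treated wild-type islets. It was the member with the smallest p in this comparison, at 2.39-fold (1.26 ± 0.32, limma adjusted p = 0.106). B2m read 11.30 and 11.63 in tungstate-treated Irs2-/- islets, against 10.96 and 10.71 in tungstate-treated wild-type islets (0.63 ± 0.23). Its arrays did not overlap. Without tungstate-treated Irs2-/- replicate 2, 4 members passed (Ifih1, Bst2, Ifit3 and Ifit2), against 5.08% of all genes. Of the further pathway genes 2 rose, Ifnar2 by 0.80 ± 0.14 (limma adjusted p = 0.0459) and Ifitm3 by 1.70 ± 0.25 (limma adjusted p = 0.0303).

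Between tungstate-treated and untreated wild-type islets 0 of the 40 members passed limma's test, where 0% of the 13369 tested genes did, and 0 members had an unadjusted p under 0.05, against 2.72% of all genes. The differences lay between -0.42 and 0.10, with a median of -0.16, against -0.03 over all tested genes. Both treated arrays lay below both untreated ones for 7 members and above them for 1, where 21.9% and 15.2% of all tested genes did so. The interaction, which tests whether the tungstate difference in Irs2-/- islets differs from that in wild-type islets, had 0 members past limma's test and 0.0224% of all genes. At an unadjusted p under 0.05 there were 8 members (Psmb8, Psmb9, Ciita, H2-Ab1, H2-Eb1, H2-DMa, Gbp2 and Irf8), against 6.45% of all genes. All 8 interaction values were below 0, from -0.72 for Ciita to -1.71 for Irf8, and the smallest adjusted p was 0.662.

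With both treatments averaged, 15 members were higher in Irs2-/- than in wild-type islets and 0 lower, where 10.9% of all tested genes were higher and 22.1% differed in either direction. Of these, Bst2 (0.66 ± 0.19, limma adjusted p = 0.0414), Irf7 (0.37 ± 0.10, limma adjusted p = 0.0408) and Ifit2 (0.75 ± 0.22, limma adjusted p = 0.0429) had not passed in the untreated mice alone. The smallest p was that of Iigp1 (1.47 ± 0.23, limma adjusted p = 0.00490). Psmb9, Ciita, H2-Aa and Irf8, which had passed in the untreated mice alone, did not pass here (limma adjusted p between 0.0576 and 0.0779). Of the antigen presentation genes 8 of 14 passed in this average. This average holds the same untreated arrays as the first comparison and is not separate evidence. On the same arrays 9 of 11 macrophage, 3 of 6 T cell and 3 of 5 endothelial markers rose and 5 of 7 beta cell markers fell, and their part was not tested. The count was 8 without untreated wild-type replicate 2 (14.2% of all genes), without tungstate-treated wild-type replicate 1 (10.4%) or without untreated Irs2-/- replicate 1 (16.7%), and 6 without tungstate-treated wild-type replicate 2 (10.7%).

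The antigen presentation and immunoproteasome genes were also set against the Ifit, Oas and Mx type genes as classes. In untreated Irs2-/- against untreated wild-type islets 11 of 14 antigen presentation genes rose, with a median of 1.17, and 0 of 7 tested Ifit, Oas and Mx type genes did (2 with an unadjusted p under 0.05), with a median of 0.22 over 8 genes. The medians differed by 0.95. Between tungstate-treated and untreated Irs2-/- islets the medians were -1.13 and -0.06, a difference of -1.07. Between tungstate-treated Irs2-/- and tungstate-treated wild-type islets the classes differed by -0.03, and between tungstate-treated and untreated wild-type islets by -0.04. Array by array, the mean of the antigen presentation genes minus the mean of the Ifit, Oas and Mx type genes was 1.23 and 2.00 in tungstate-treated Irs2-/- islets, 2.88 and 2.45 in untreated Irs2-/- islets, 1.78 and 1.56 in tungstate-treated wild-type islets and 1.86 and 1.57 in untreated wild-type islets. Both untreated Irs2-/- arrays thus stood above the other 6, and the pooled SD between replicates was 0.34. This mean difference compares arrays with each other only, since signals of different probe sets are not on a common scale. Both untreated Irs2-/- arrays lay above the other 6 arrays for 12 of 14 antigen presentation genes, 4 of 6 GTPases, 2 of 6 transcription and feedback genes, 1 of 8 Ifit, Oas and Mx type genes and 0 of 7 other antiviral genes, where 15.1% of all tested genes did so. The mean levels of macrophage, T cell and B cell markers stood above the other 6 arrays on the same 2 arrays, and their part in the class difference was not tested. The class difference between tungstate-treated and untreated Irs2-/- islets was -0.54 without tungstate-treated Irs2-/- replicate 1. That between tungstate-treated Irs2-/- and tungstate-treated wild-type islets was 0.35 without replicate 1 and -0.50 without replicate 2 of the tungstate-treated Irs2-/- islets, so its sign depends on the array.

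**Figure D5:**
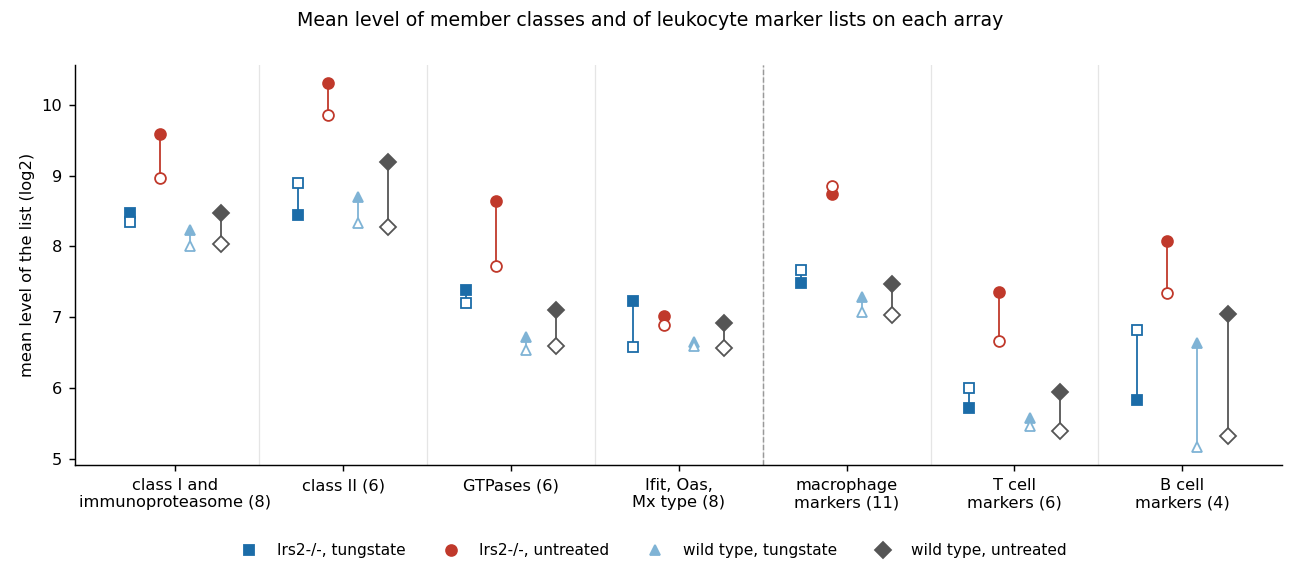
Mean log2 level of 4 member classes and of macrophage, T cell and B cell markers on each of the 8 arrays, with replicate 1 filled, replicate 2 open and a line joining them. Class I, class II, GTPase, macrophage, T cell and B cell levels are highest on both untreated Irs2-/- arrays, and the Ifit, Oas and Mx type level is highest on replicate 1 of the tungstate-treated Irs2-/- islets, at 7.23.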

How the data were processed

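RNA of whole islets was hybridised to 8 Affymetrix arrays, 2 in each of 4 groups. The deposited table holds a log2 signal for each probe set on each array. The authors made it with RMA (affy, run in R 2.7.0), per the submitters' processing notes, and its values are not centred per gene. The arrays' medians lay between 5.63 and 5.71. All 8 value columns were used. No scan date or batch was used here, and the number of arrays limits the precision.

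Of 45037 probe sets besides 64 controls, 34945 named a single gene in the platform annotation, 932 several and 9160 none. Names were compared with a RefSeq gene table by gene number (34741 matched, 0 changed). For each gene the probe set of highest mean was kept, and 4824 genes under the 40th percentile of the means were left out. The 4 group means were fitted in limma 3.58.1 (R 4.3.3) with empirical Bayes moderation (residual degrees of freedom 4, prior 3.89). The Benjamini and Hochberg adjustment ran over the 13369 genes within each of 6 contrasts, at a threshold of 0.05. The median SE of a difference between groups was 0.14, and 0.20 for the interaction. The workflow was tested on simulated data.

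The members and lists were chosen with earlier results of these data known, and the lists give no independent support. Per-array values are given for the 4 members of each class with the smallest p between the untreated genotypes and the 3 with the smallest p for tungstate in Irs2-/- islets, and of each pathway list up to 4 genes are named. Values of the other members are given as differences, ranges and counts. Ifng and Mx1, B2m and Iigp1 between the treated genotypes, and the genes with values in the closing section fall outside this rule and were chosen after their values were seen.

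Alternatives tried were no filter and a filter at the 60th percentile, robust moderation with a variance trend, a fit to the compared arrays alone, a block for the replicate number, quantile normalization, median centring, averaging a gene's probe sets, a covariate for acinar markers, other class definitions, and leaving out each array. Leaving out replicate 1 of both untreated groups was added after seeing the data.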

Additional observations from a re-analysis of the deposited data

How the results depend on the processing

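The count of members past the test in untreated Irs2-/- against untreated wild-type islets was 16 and lay between 0 and 18 when each array was left out in turn. It was 10 with only the arrays compared, against 11.4% of all genes. Under the other settings that kept both arrays of each group it stayed within 1.5 times of 16. For tungstate in Irs2-/- islets the count of 0 became 1 with the replicate block (Psmb8), 5 with the acinar level as a covariate, and between 0 and 7 when an array was left out. For tungstate-treated Irs2-/- against tungstate-treated wild-type islets it became 1 with the replicate block (Iigp1) and between 0 and 4 when an array was left out. It was 0 for tungstate in wild type and for the interaction under all settings run. With the genotypes averaged it was 15, between 6 and 20 when an array was left out, and 20 with the replicate block. The class difference for tungstate in Irs2-/- islets lay between -1.33 and -0.54, and for the treated genotypes between -0.50 and 0.35, when an array was left out, so this one turned its sign. That between the untreated genotypes lay between 0.77 and 1.08. The cause of these shifts was not tested. No single member turned its sign past the test. The counts with the genotypes averaged take both directions together. When a gene's probe sets were averaged, 16 members were higher and 1 lower in Irs2-/- than in wild-type islets. Without untreated Irs2-/- replicate 2 the members past the test were also not all higher in Irs2-/- islets. The replicate numbers are not shown to pair the samples, since the deviations of same-numbered arrays correlated between -0.066 and 0.418. The best correlation was with the own number for 8 of 8 arrays. Deviations of the 2 arrays of a group mirror each other, so these are not 8 separate outcomes and add nothing to those correlations. Centring each array on its median moved the median of all genes by less than 0.1. Signals near the filter, such as those of Mx1, Ifng, Oasl2, Socs1 and Stat2, and of Nlrc5 in wild-type islets, may understate differences. The means over the 8 arrays were 5.34 for Oasl2, 5.48 for Socs1 and 5.52 for Stat2, against a filter of 5.27.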

Other observations

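Within the tungstate-treated Irs2-/- islets the 2 replicates ordered the class II genes the other way from most other member classes. Replicate 1 lay above replicate 2 for 6 of 8 Ifit, Oas and Mx type genes and for 6 of 7 other antiviral genes. It did so for 6 of 8 class I and immunoproteasome genes, 5 of 6 GTPases and 3 of 6 transcription and feedback genes. For class II genes it was 0 of 6, and over all tested genes 6858 of 13369. In each of the other groups replicate 1 lay above replicate 2 for 6 of 6 class II genes. Ifit1, which binds viral RNA ends, read 7.14 on replicate 1 and 5.77 on replicate 2, the highest and the lowest of all 8 arrays. Ifit3 read 7.59 and 6.44 and Oasl2 6.26 and 5.02 on the same arrays, and replicate 1 was again the highest of all 8. H2-Aa, a class II chain, read 10.81 on replicate 1 and 11.52 on replicate 2, and H2-Ab1 read 8.98 and 9.56. Endothelial markers averaged 8.46 on replicate 1 and 7.76 on replicate 2, B cell markers 5.84 and 6.82, and the acinar markers 11.40 and 12.16. These genes were chosen after their values were seen, and the part of other cell types was not tested.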
